A study of Mus musculus with 9 samples.

Results

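The genes examined here were 46 genes of DNA replication and of the repair and checkpoint steps tied to it. They were chosen by name from textbook knowledge of the replication machinery, with earlier results of these data known. They were 46 of the 18193 genes measured, and 1 further gene of the original 47 was not analysed here. Expression was measured on 9 Affymetrix mouse expression arrays. Auditory nerve tissue (3 arrays) was taken untreated from CBA/CaJ mice of both sexes, aged 8 to 12 weeks. Cultured cells (3 arrays) came from the same kind of nerve, dissociated and grown to confluency over 5 to 7 days in medium with 10% fetal bovine serum. Neurospheres (3 arrays) are floating clusters of cells, here obtained when such cultures were moved to a serum-free proliferation medium with EGF at 20 ng/ml, FGF at 10 ng/ml and heparin at 2 µg/ml. The study grew them for 12 days in that medium. All values are log2 signals, on which a difference of 1 is a doubling. A gene was counted as changed when its adjusted p from limma was under 0.05 and its fold change also exceeded 1.5. Nothing in the sources used here tells if replicate samples were made from different animals or cultures, so that the p-values rest on a spread that may be partly technical.

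DNA replication begins at origins, where the origin recognition complex, Cdc6 and Cdt1 load the ring of Mcm proteins that later unwinds the DNA. In S phase the kinase Cdc7 with its partner Dbf4, together with Cdc45, the GINS complex and Mcm10, turns the loaded rings into working helicases, and polymerases, a sliding clamp and its loader then copy both strands. Many of these genes are known targets of E2F transcription factors, which are released when cyclin E and other cyclins drive a cell out of G1. Mature neurons do not divide and Schwann cells of a healthy adult nerve rarely do, whereas dissociated nerve cells can re-enter the cell cycle in culture.

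The promoters of the genes are shown first because E2F sites are their best known shared feature. Of the 46 genes, 39 had a promoter entry in RefSeq (assembly GRCm38.p6), a window of 300 bases that runs from 250 bases before the transcription start to 50 after it. The letters searched for E2F were TTTCCCGC, TTTGGCGC, TTTCGCGC and TTTGCCGC on either strand. A match was present in 14 of the 39 genes (35.9%), against 550 of the 14452 tested genes that had an entry (3.81%) and 704 of all 27025 genes in the table (2.6%). The letters CCAAT, on either strand, were found in 19 of the 39 (48.7%) and in 42.0% of the tested genes. TTTGAA, the letters of the cell cycle homology region element, were found in 6 of the 39 (15.4%) and in 15.7% of the tested genes. The median GC content was 58.8% in the 39 genes' windows and 58.3% in those of the tested genes. The promoters printed here run 5′ to 3′ on the strand of the gene, with the E2F matches in capitals. Mcm5 (chr8:75109259-75109558, plus strand) and Mcm6 (chr1:128359656-128359955, minus strand) hold overlapping matches, Cdc6 (chr11:98907901-98908200, plus strand) holds 1 match, and Gins3 (chr8:95633309-95633608, plus strand) is shown because it has a match although its chosen probe set passed in no comparison.
Mcm5: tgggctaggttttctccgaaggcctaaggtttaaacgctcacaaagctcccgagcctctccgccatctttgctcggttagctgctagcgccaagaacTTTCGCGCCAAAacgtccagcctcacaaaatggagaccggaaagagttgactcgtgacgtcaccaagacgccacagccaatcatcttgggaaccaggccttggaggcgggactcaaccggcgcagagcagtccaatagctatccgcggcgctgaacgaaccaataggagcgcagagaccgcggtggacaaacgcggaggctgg
Mcm6: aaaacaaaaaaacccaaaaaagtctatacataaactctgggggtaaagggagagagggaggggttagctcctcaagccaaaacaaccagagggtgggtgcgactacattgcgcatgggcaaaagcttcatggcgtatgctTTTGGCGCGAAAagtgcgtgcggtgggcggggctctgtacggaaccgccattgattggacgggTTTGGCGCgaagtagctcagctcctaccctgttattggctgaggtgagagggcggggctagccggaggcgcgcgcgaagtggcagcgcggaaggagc
Cdc6: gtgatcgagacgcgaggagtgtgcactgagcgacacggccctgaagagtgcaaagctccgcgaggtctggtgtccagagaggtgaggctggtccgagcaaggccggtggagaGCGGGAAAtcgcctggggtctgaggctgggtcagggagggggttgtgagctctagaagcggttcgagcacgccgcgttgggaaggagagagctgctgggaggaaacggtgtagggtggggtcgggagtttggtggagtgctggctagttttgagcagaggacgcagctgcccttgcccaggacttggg
Gins3: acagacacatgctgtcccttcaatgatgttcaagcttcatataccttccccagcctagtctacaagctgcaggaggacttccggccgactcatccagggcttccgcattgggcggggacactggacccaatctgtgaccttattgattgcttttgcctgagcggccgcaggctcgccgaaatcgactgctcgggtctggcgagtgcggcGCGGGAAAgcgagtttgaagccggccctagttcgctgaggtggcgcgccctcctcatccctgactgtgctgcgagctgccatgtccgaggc

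Counted from the transcription start, the first Mcm5 match, TTTCGCGC, lay at -153 to -146 and overlapped the second, GCGCCAAA, at -149 to -142. In Mcm6, TTTGGCGC at -110 to -103 overlapped GCGCGAAA at -106 to -99, and a further TTTGGCGC lay at -47 to -40. The single matches were at -138 to -131 in Cdc6 and at -41 to -34 in Gins3, both GCGGGAAA, which is TTTCCCGC on the other strand. The other genes with a match were Orc1, Cdt1, Mcm3, Mcm7, Pola1, Pold1, Pole2, Rfc3, Lig1 and Brca2. A match is a string of letters and not a measured binding site, and its absence from this window says nothing of the factor.

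The arrays of a group were alike. Over all genes, Pearson's r between arrays was 0.993 to 0.997 within a group, 0.959 to 0.966 between cultured cells and neurospheres, and 0.843 to 0.861 between tissue and either culture. Of 10 markers of spiral ganglion neurons, whose fibres make up the nerve, 9 fell in cultured cells and 8 in neurospheres against tissue, and 6 of 7 Schwann cell and myelin markers fell in both. The mean signal of the neuron markers was 11.67 to 11.93 on the tissue arrays, 5.96 to 6.21 on the cultured-cell arrays and 6.41 to 6.53 on the neurosphere arrays. Of 10 fibroblast markers, 7 rose and 1 fell in cultured cells and 9 rose and 0 fell in neurospheres, while 8 of 10 macrophage markers fell in each. Of 10 endothelial markers 7 fell and 1 rose in cultured cells and 6 fell and 3 rose in neurospheres. Smooth muscle and pericyte markers had 5 of 10 up and 3 down in cultured cells and 1 up and 3 down in neurospheres. Beside these counts, 20.4% of all genes rose and 22.0% fell in cultured cells, and 21.7% rose and 21.0% fell in neurospheres. The tissue RNA also differed in the array's degradation controls, with a 3′ minus 5′ actin signal of 2.38 to 3.07 for tissue, 0.33 to 0.40 for cultured cells and 0.54 to 0.83 for neurospheres. The part that cell type make-up and RNA quality had in the values below was not tested, and in such mixed samples fewer cells of a type and less RNA per cell cannot be told apart.

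**Figure D1:**
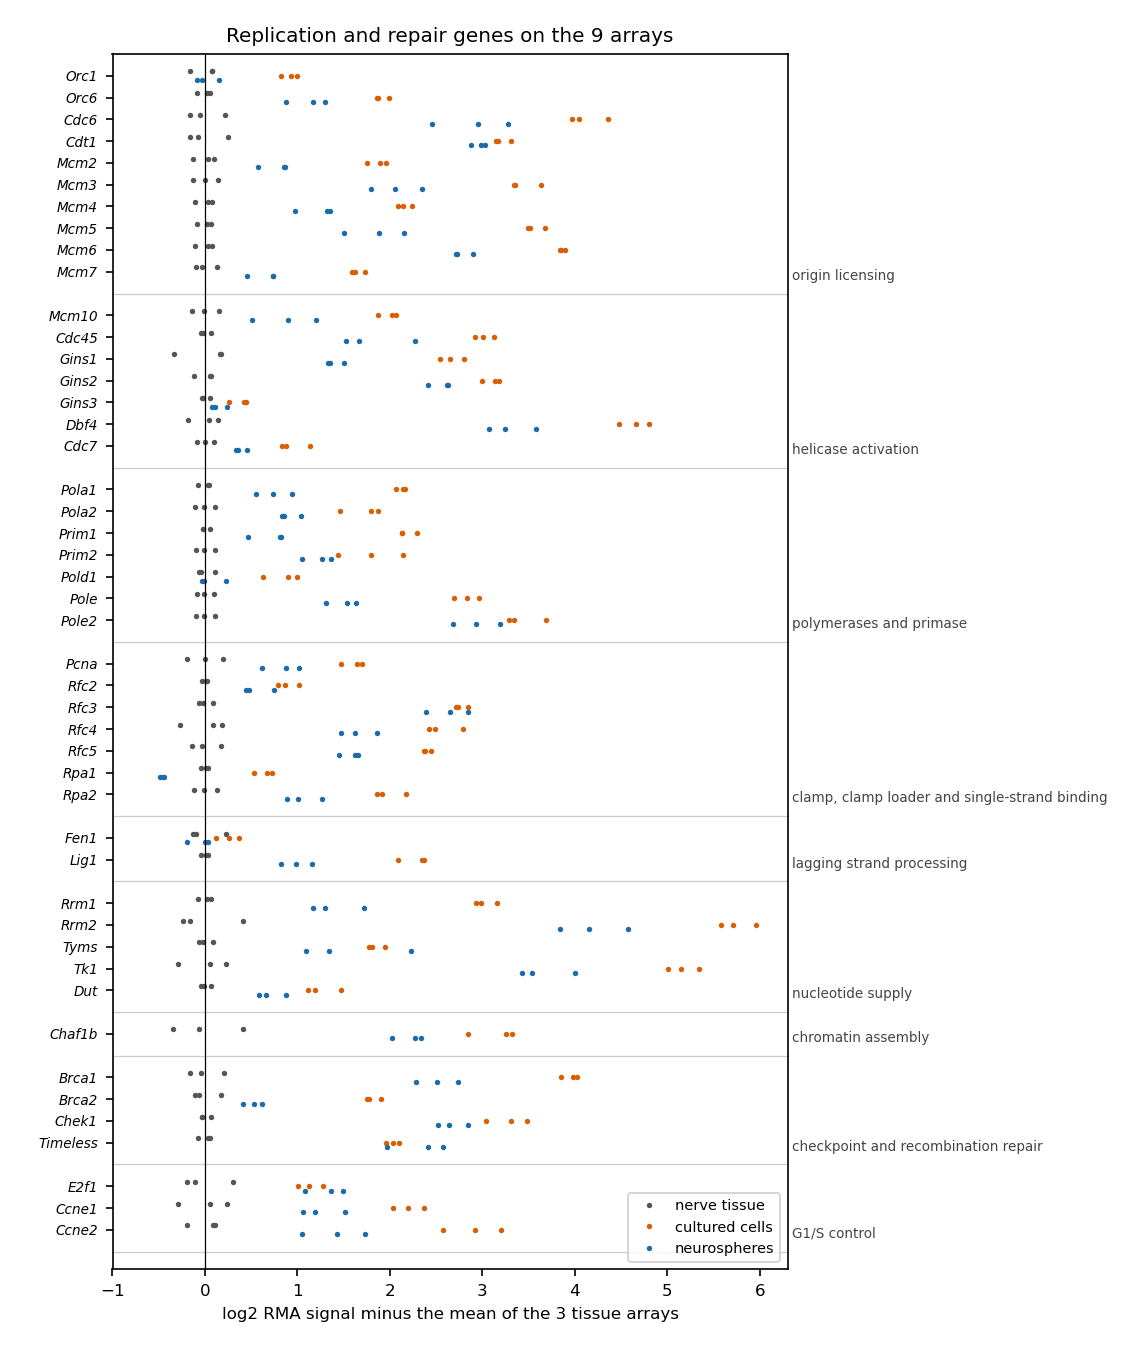
Log2 RMA signal of each replication and repair gene on the 9 arrays, drawn as the difference from the mean of the 3 tissue arrays (x axis) with 1 row per gene, grouped by role; grey points are tissue, orange cultured cells and blue neurospheres. In 38 of the 46 genes the neurosphere points lay between the tissue points and the cultured-cell points without overlap, and Rrm2 and Tk1 reached furthest to the right.

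Nearly all of the genes were lowest in nerve tissue, highest in cultured cells and intermediate in neurospheres. Against tissue, 44 of the 46 rose in cultured cells and 0 fell, with a median log2 fold change of 2.19. Over all 18193 genes 20.4% rose and 22.0% fell in that comparison, and their median was -0.01. In neurospheres 38 rose against tissue and 0 fell, with a median of 1.35, where 21.7% of all genes rose and 21.0% fell with a median of 0.05. Neurospheres set against cultured cells had 33 of the 46 lower and 0 higher, with a median of -0.93, where 8.91% of all genes fell and 9.0% rose with a median of 0.05.

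The order was as regular gene by gene. In 38 of the 46 genes every tissue array was below every neurosphere array and every neurosphere array below every cultured-cell array. That order without overlap was found for 7.56% of all genes (1375 of 18193). On the chosen probe sets, all 3 comparisons passed in the common direction in 29 genes. A further 9 genes (Cdt1, Gins2, Prim2, Pole2, Rfc3, Tyms, Dut, Timeless and E2f1) rose in both cultures and did not pass between them. Of these 9, Gins2, Prim2, Pole2, Tyms and Timeless had another probe set that fell between the cultures. Orc1, Pold1, Rpa1 and Brca2 rose in cultured cells and fell again in neurospheres, where they did not pass against tissue. Cdc7 and Rfc2 passed only in cultured cells against tissue, and Gins3 and Fen1 in no comparison. The comparisons share arrays, so these patterns are not independent of each other.

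The genes that license origins rose throughout in cultured cells. All 10 passed there with a median log2 fold change of 2.68, and 9 of the 10 passed in neurospheres against tissue with a median of 1.53. Cdc6, which loads the Mcm ring and is made anew in each cycle, read 4.22, 4.32 and 4.59 on the tissue arrays, 8.34, 8.74 and 8.42 on the cultured-cell arrays and 7.65, 6.84 and 7.33 on the neurosphere arrays. No array of any group overlapped another group. The rise in cultured cells was 4.12 ± 0.13 (log2, SE, n = 3 per group, adjusted p = 4.19e-09 by limma) and the difference of neurospheres from cultured cells was -1.23 ± 0.20 (adjusted p = 0.00188). Cdt1, the other loading factor, behaved differently between the cultures. It read 7.27, 6.86 and 6.95 in tissue, 10.19, 10.34 and 10.17 in cultured cells and 9.90, 10.06 and 10.02 in neurospheres. Its rise in neurospheres was 2.96 ± 0.12 (adjusted p = 8.68e-08), the fourth largest of the 46 after Rrm2, Tk1 and Dbf4. Between the cultures the arrays did not overlap, but the difference of -0.24 did not pass (95% interval -0.44 to -0.04, adjusted p = 0.0653).

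The Mcm genes encode the 6 subunits of the helicase ring. Mcm5 read 7.27, 7.11 and 7.22 in tissue, 10.71, 10.88 and 10.70 in cultured cells and 9.35, 8.70 and 9.08 in neurospheres. All its neurosphere arrays were below all its cultured-cell arrays, with a log2 difference of -1.72 ± 0.16 (adjusted p = 7.67e-05), the largest such fall among the 46 genes. Mcm6 rose most in cultured cells, by 3.86 ± 0.08, and Mcm3 by 3.45, Mcm4 by 2.16 and Mcm7 by 1.65. Mcm2 read 8.21, 8.04 and 8.28 in tissue, 9.93, 10.14 and 10.07 in cultured cells and 9.03, 8.74 and 9.04 in neurospheres. On the chosen probe sets Mcm2 and Mcm7 rose by 0.76 and 0.64 in neurospheres. Dimmer probe sets of the same genes gave more, 2.04 for Mcm2 and up to 2.41 for Mcm7, of whose 4 probe sets 1 did not pass there (0.55). The other Mcm4 probe set read 9.13, 9.24 and 9.39 in tissue and 9.83, 9.62 and 9.93 in neurospheres. That rise was under the fold threshold, where the chosen Mcm4 probe set rose by 1.22. On the chosen probe sets all 6 ring subunits rose in both cultures and fell by 0.94 to 1.72 between cultured cells and neurospheres.

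Of the origin recognition complex, Orc6 rose by 1.91 in cultured cells and by 1.11 in neurospheres. Orc1, a subunit that binds ATP, read 6.61, 6.61 and 6.37 in tissue, 7.45, 7.53 and 7.35 in cultured cells and 6.49, 6.44 and 6.67 in neurospheres. The tissue and neurosphere arrays overlapped, and the difference was 0.01 (95% interval -0.23 to 0.25). A second probe set of Orc1 gave another size, as described with the probe sets.

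Of the 7 genes of helicase activation, 6 rose in cultured cells and 5 in neurospheres against tissue, with medians of 2.66 and 1.39, and 4 fell between cultured cells and neurospheres. Dbf4, the regulatory partner of the Cdc7 kinase, read 5.83, 5.61 and 5.93 in tissue, 10.28, 10.59 and 10.45 in cultured cells and 9.37, 8.87 and 9.04 in neurospheres. It was 25.1 times higher in cultured cells than in tissue (log2 4.65 ± 0.12, adjusted p = 8.82e-10) and 9.86 times higher in neurospheres. Cdc7 itself read 7.68, 7.86 and 7.77 in tissue, 8.65, 8.91 and 8.60 in cultured cells and 8.23, 8.10 and 8.13 in neurospheres. The groups did not overlap, yet the kinase passed only in cultured cells (log2 0.95 ± 0.10), since in neurospheres it was 1.30 times the tissue level (adjusted p = 0.00506) and below the fold threshold.

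Cdc45 rose by 3.02 in cultured cells and by 1.82 in neurospheres, and Mcm10 by 1.99 and 0.87. Of the GINS complex subunits, Gins1 rose by 2.66 and 1.39 and Gins2 by 3.11 and 2.55. Gins2 read 5.88, 6.06 and 6.08 in tissue, 9.14, 9.19 and 9.01 in cultured cells and 8.63, 8.42 and 8.63 in neurospheres, and its difference between the cultures of -0.55 (adjusted p = 0.00251) was under the fold threshold. Gins3 read 6.95, 7.04 and 6.96 in tissue, 7.41, 7.43 and 7.25 in cultured cells and 7.22, 7.09 and 7.06 in neurospheres. The 3 groups of Gins3 values did not overlap, but the differences were small, at 0.38 for cultured cells against tissue (adjusted p = 0.00337), 0.14 for neurospheres against tissue and -0.24 between the cultures. The first of these passed the fold threshold under 2 other scalings of the arrays, at 0.63 with quantile normalization and 0.60 with centring on the hybridisation controls. The other Gins3 probe set rose by 1.51 and 0.93 in the cultures and passed.

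All 7 polymerase and primase genes rose in cultured cells, with a median log2 fold change of 2.12, and 6 rose in neurospheres, with a median of 0.91. Pole2, an accessory subunit of the leading-strand polymerase, read 5.68, 5.80 and 5.60 in tissue, 9.03, 9.38 and 8.98 in cultured cells and 8.88, 8.37 and 8.63 in neurospheres. It rose by 3.44 ± 0.12 in cultured cells and by 2.93 ± 0.13 in neurospheres (adjusted p = 1.75e-07), and its difference of -0.50 between the cultures did not pass (95% interval -0.86 to -0.15). Pole, the catalytic subunit of the same enzyme, rose by 2.83 and 1.49 and fell by 1.34 between cultured cells and neurospheres. Pola1 and Prim1, the catalytic subunits of polymerase alpha and of primase, rose by 2.12 and 2.19 in cultured cells but by 0.74 and 0.70 in neurospheres. Both fell between the cultures, by 1.38 and 1.49. The rise of Prim1 in neurospheres depended on the probe set. Its other probe set read 8.06, 7.98 and 7.75 in tissue and 8.11, 7.73 and 8.06 in neurospheres, which overlapped. Prim2, the large primase subunit, read 7.27, 7.16 and 7.07 in tissue, 8.61, 9.32 and 8.97 in cultured cells and 8.53, 8.22 and 8.43 in neurospheres. Its cultured-cell arrays were spread more widely (SD 0.35) than those of any other of the 46 genes, and the difference of -0.57 between the cultures had a 95% interval of -0.97 to -0.17 and a fold under 1.5. Pold1, the catalytic subunit of the lagging-strand polymerase, was 0.84 higher in cultured cells than in tissue and 0.06 higher in neurospheres, where it did not pass. The other Pold1 probe set read 7.15, 6.78 and 6.84 in tissue and 7.89, 7.44 and 7.51 in neurospheres, a rise that passed.

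The clamp, its loader and the proteins that coat single-stranded DNA all rose in cultured cells, 7 of 7 with a median of 1.98. Pcna, the sliding clamp, read 10.75, 10.94 and 11.14 in tissue, 12.65, 12.58 and 12.41 in cultured cells and 11.97, 11.56 and 11.82 in neurospheres. Its rise was 1.60 ± 0.12 in cultured cells (adjusted p = 1.22e-06) and 0.84 ± 0.14 in neurospheres (adjusted p = 6.30e-04). Among the clamp loader genes, Rfc3 rose by 2.76 and 2.63, Rfc4 by 2.57 and 1.65 and Rfc5 by 2.40 and 1.57. Rfc3 had overlapping arrays in the 2 cultures, with a difference of -0.13 (95% interval -0.41 to 0.14). Rfc2 read 8.52, 8.53 and 8.48 in tissue, 9.38, 9.53 and 9.30 in cultured cells and 9.26, 8.98 and 8.95 in neurospheres. It passed in cultured cells, at 0.89, and stayed at 1.47 times the tissue level in neurospheres, under the threshold.

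Rpa1 was the only one of the 46 genes whose neurosphere arrays all lay below the tissue arrays. This large subunit of the single-strand binding protein read 11.19, 11.14 and 11.21 in tissue, 11.85, 11.90 and 11.71 in cultured cells and 10.73, 10.69 and 10.74 in neurospheres. Neurospheres differed from tissue by -0.46 ± 0.08 (adjusted p = 8.70e-04), which was under the fold threshold, and from cultured cells by -1.10 ± 0.08 (adjusted p = 2.94e-05). Its partner Rpa2 rose by 1.98 in cultured cells and by 1.06 in neurospheres. A second Rpa1 probe set gave the opposite order of tissue and neurospheres, as set out with the probe sets. Of the lagging-strand genes, Lig1, the ligase that seals nicks, rose by 2.27 and 0.99. Fen1, the nuclease that trims flaps, read 10.46, 10.14 and 10.10 in tissue, 10.61, 10.50 and 10.35 in cultured cells and 10.24, 10.03 and 10.26 in neurospheres. Its tissue arrays overlapped those of both cultures and no comparison passed. The neurosphere arrays of Fen1 were all below its cultured-cell arrays, but the difference of -0.31 was under the fold threshold.

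**Figure D2:**
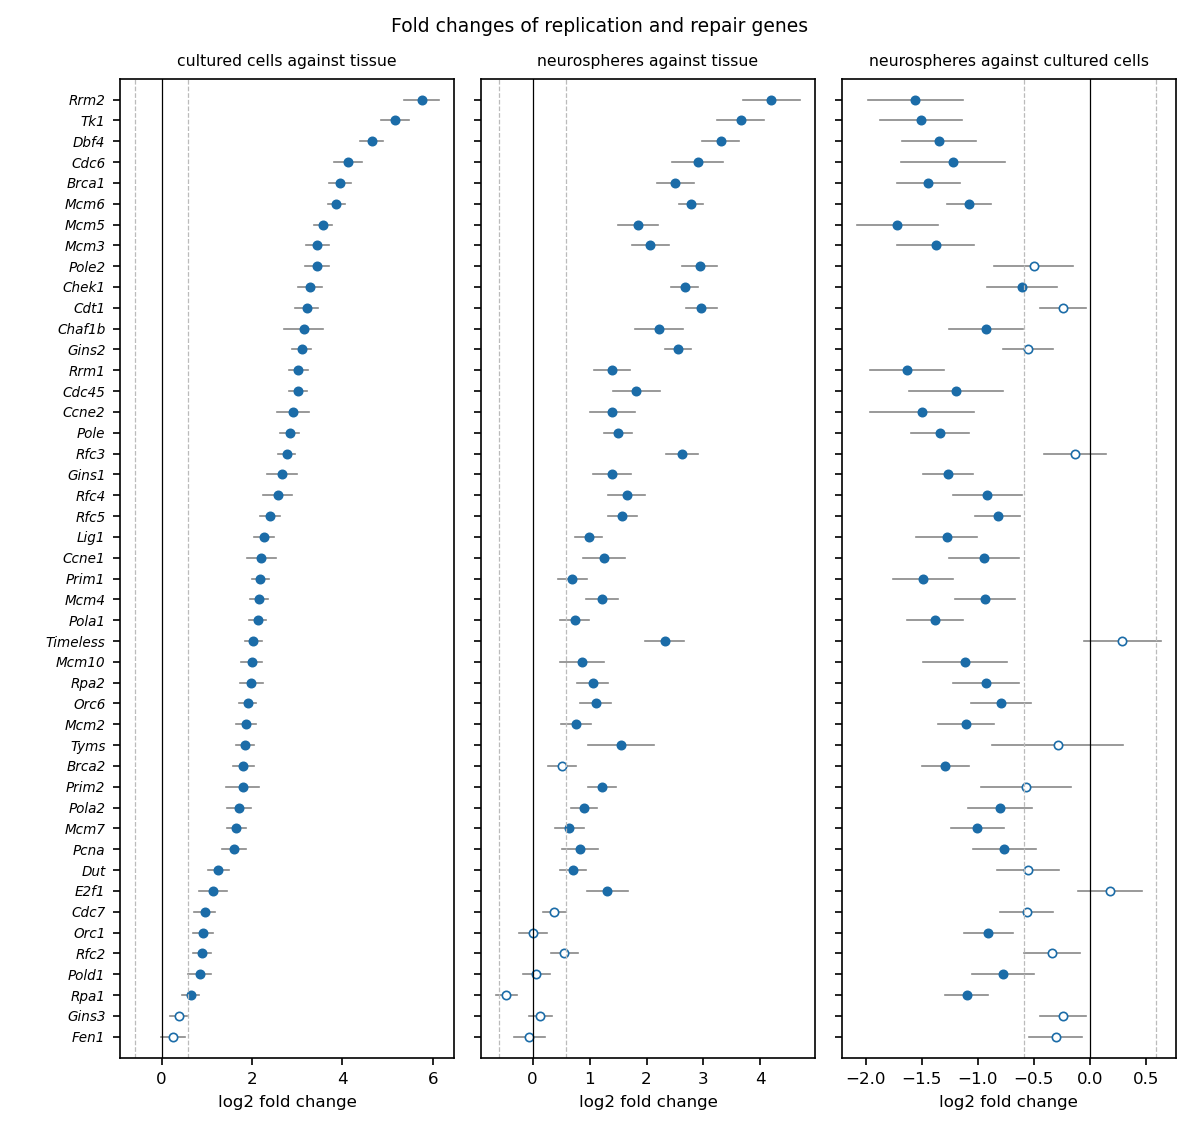
Log2 fold change of each replication and repair gene (rows) in the 3 comparisons (panels), with 95% intervals as bars; filled points passed both thresholds (limma adjusted p and fold change), open points did not, and dashed lines mark the fold of 1.5. The 44 filled points of cultured cells against tissue and the 38 of neurospheres against tissue lie to the right of 0, and the 33 of neurospheres against cultured cells to its left.

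Rrm2 and Tk1, of the enzymes that supply DNA precursors, had the largest rises of the 46 genes in both cultures. All 5 such enzymes rose in both cultures, with medians of 3.03 in cultured cells and 1.55 in neurospheres. Rrm2, the S-phase subunit of ribonucleotide reductase, read 6.49, 5.84 and 5.92 in tissue, 11.67, 12.04 and 11.79 in cultured cells and 10.66, 9.92 and 10.24 in neurospheres. It was 53.8 times the tissue level in cultured cells (log2 5.75 ± 0.17, adjusted p = 2.54e-09) and 18.3 times in neurospheres (log2 4.19 ± 0.22, adjusted p = 4.22e-07). Tk1, the cytosolic thymidine kinase of the salvage pathway, read 4.75, 4.57 and 4.23 in tissue, 9.66, 9.86 and 9.52 in cultured cells and 8.52, 7.95 and 8.05 in neurospheres. It rose 35.9-fold in cultured cells and 12.6-fold in neurospheres. Both genes were lower in neurospheres than in cultured cells, Rrm2 by a log2 difference of -1.56 ± 0.18 and Tk1 of -1.51 ± 0.16.

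Rrm1, the other reductase subunit, read 8.48, 8.34 and 8.44 in tissue, 11.35, 11.57 and 11.41 in cultured cells and 10.13, 9.59 and 9.72 in neurospheres. Its fall between cultured cells and neurospheres was the second largest of the 46 (log2 -1.63 ± 0.15, adjusted p = 6.59e-05). Tyms, thymidylate synthase, read 4.31, 4.42 and 4.26 in tissue, 6.14, 6.28 and 6.10 in cultured cells and 6.56, 5.68 and 5.42 in neurospheres. The first neurosphere array was above every cultured-cell array and the others were below, giving the largest spread of the 46 genes in neurospheres (SD 0.60). Dut, which removes dUTP, read 8.47, 8.55 and 8.44 in tissue, 9.68, 9.96 and 9.60 in cultured cells and 9.36, 9.07 and 9.14 in neurospheres. Dut rose by 1.26 and 0.70 on this probe set, and a second one showed the opposite. Between the cultures neither Tyms (-0.29, 95% interval -0.88 to 0.30) nor Dut (-0.55, -0.83 to -0.27) passed.

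Chromatin assembly was represented by Chaf1b, a subunit of the factor that places histones behind the fork, which rose by 3.14 in cultured cells and 2.21 in neurospheres. All 4 checkpoint and recombination genes rose in cultured cells. Brca1, which acts in homologous recombination, read 5.16, 5.04 and 5.41 in tissue, 9.05, 9.22 and 9.18 in cultured cells and 7.94, 7.49 and 7.71 in neurospheres. It rose 15.4-fold in cultured cells (log2 3.95 ± 0.11, adjusted p = 1.63e-09) and 5.69-fold in neurospheres, and fell by 1.44 between them. Brca2, which loads the recombinase, read 6.94, 6.70 and 6.65 in tissue, 8.67, 8.52 and 8.53 in cultured cells and 7.38, 7.30 and 7.17 in neurospheres. The neurosphere arrays were all above tissue, but the 1.43-fold difference (adjusted p = 0.00245) did not pass.

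Chek1, the kinase that restrains the cell cycle when forks stall, read 5.54, 5.44 and 5.44 in tissue, 8.51, 8.96 and 8.78 in cultured cells and 8.11, 8.00 and 8.31 in neurospheres. It rose by 3.28 and 2.67 and fell by 0.61 between cultured cells and neurospheres (adjusted p = 0.00851), a fall of 1.52-fold that lay just past the threshold. That fall no longer passed without cultured cells replicate 2, at -0.50, or without neurospheres replicate 2, at -0.53. It was the only call among the 46 genes lost when an array was left out. Timeless, a fork protection factor, read 7.28, 7.15 and 7.25 in tissue, 9.33, 9.26 and 9.19 in cultured cells and 9.19, 9.64 and 9.80 in neurospheres. Its arrays overlapped between the cultures, and its difference there was 0.29 (95% interval -0.06 to 0.63).

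The genes of the G1 to S transition rose in both cultures, 3 of 3. Ccne1 and Ccne2 encode cyclin E, the partner of the Cdk2 kinase. Ccne1 read 6.82, 6.64 and 6.29 in tissue, 8.78, 8.95 and 8.62 in cultured cells and 8.09, 7.65 and 7.77 in neurospheres. Ccne2 read 6.28, 6.58 and 6.57 in tissue, 9.06, 9.68 and 9.40 in cultured cells and 8.21, 7.52 and 7.91 in neurospheres. They were 4.59 and 7.47 times the tissue level in cultured cells, and in neurospheres 1.92 and 2.83 times lower than in cultured cells. E2f1, the best known activator of S-phase genes, read 6.28, 5.77 and 5.86 in tissue, 7.24, 7.10 and 6.98 in cultured cells and 7.47, 7.05 and 7.33 in neurospheres. Its rises of 1.13 and 1.31 were similar in size and the 2 cultures overlapped, with a difference of 0.18 (95% interval -0.11 to 0.47).

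The sizes of change were also set out by promoter, with no test. Among genes with an E2F match in the window the median log2 fold change was 2.52 in cultured cells, 1.42 in neurospheres and -1.04 between the cultures (14 genes). The 25 genes with an entry but no match had medians of 2.03, 1.31 and -0.93. Of the genes with a match 13 rose in cultured cells, and of those without 24. Rrm2 and Tk1, which rose most, had no match, and Gins3, shown above, had one and did not pass.

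Spread among the arrays of a group was largest in neurospheres. The median SD over the 46 genes was 0.11 (tissue), 0.12 (cultured cells) and 0.19 (neurospheres), where the median over all genes was 0.11, 0.10 and 0.12. The deviations ran together. Neurosphere replicate 1 was the highest of the 3 for 36 of the 46 genes and replicate 2 the lowest for 37. The median level of the 46 genes on those arrays was 8.62, 8.33 and 8.49. In cultured cells replicate 2 was the highest for 38 genes, with medians of 9.26, 9.45 and 9.26 on the 3 arrays, and the tissue arrays had medians of 6.94, 6.84 and 6.96. The gap between the groups was thus wider than the spread within either culture.

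Mki67 and Top2a, which mark dividing cells, moved with the replication genes. Mki67 read 4.80, 4.81 and 5.10 in tissue, 11.78, 11.74 and 11.70 in cultured cells and 10.01, 9.51 and 9.62 in neurospheres. Top2a, which untangles replicated chromosomes, read 4.95, 4.46 and 5.01 in tissue, 11.69, 11.66 and 11.57 in cultured cells and 10.22, 9.73 and 9.93 in neurospheres. The log2 fold changes in cultured cells, 6.84 and 6.83, and in neurospheres, 4.81 and 5.15, exceeded those of each of the 46 genes. Between cultured cells and neurospheres Mki67 differed by -2.03 and Top2a by -1.68.

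The array carried 105 probe sets for the 46 genes, and 37 genes had several. The values above are from the probe set with the highest mean signal. When each probe set was tested alone, 86 of the 105 rose and 1 fell in cultured cells against tissue, and every one of the 46 genes had at least 1 that rose. In neurospheres against tissue 71 rose and 1 fell, leaving Brca2, Cdc7, Rfc2 and Rpa1 without a probe set that rose. Between cultured cells and neurospheres 63 fell and 0 rose, and 39 of the 46 genes had at least 1 that fell. Those without were Cdc7, Cdt1, Dut, E2f1, Gins3, Rfc2 and Rfc3. Probe sets that did not pass had a lower median mean signal, 4.51 against 7.70 for those that rose in cultured cells. The gap was smaller in the other comparisons. It was 5.77 against 7.69 in neurospheres against tissue, and 5.98 against 7.97 for those that fell between the cultures.

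The genes that had stood apart often had a second probe set closer to the rest. For Orc1 the dimmer probe set read 3.70, 4.10 and 3.52 in tissue, 7.34, 7.74 and 6.97 in cultured cells and 5.68, 4.95 and 4.93 in neurospheres, with rises of 3.58 and 1.41. On its dimmer probe set Fen1 read 7.11, 7.14 and 7.22 in tissue, 9.19, 9.36 and 9.09 in cultured cells and 8.46, 8.00 and 8.15 in neurospheres, rising by 2.06 and 1.04. On its own dimmer probe set Gins3 read 5.11, 5.19 and 5.08 in tissue, 6.64, 6.52 and 6.75 in cultured cells and 6.14, 6.04 and 5.99 in neurospheres, rising by 1.51 and 0.93. On these probe sets neurospheres thus lay between tissue and cultured cells without overlap, and all of the rises passed. The second Timeless probe set had neurospheres lower than cultured cells, at 6.82, 6.54 and 6.85 against 7.91, 7.98 and 7.68 (log2 -1.12 ± 0.12, adjusted p = 1.66e-04 by limma over all probe sets), where the brighter one had overlapped.

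Rpa1 and Dut had probe sets that opposed each other. The dimmer Rpa1 probe set read 9.77, 9.93 and 10.12 in tissue, 11.17, 11.35 and 11.16 in cultured cells and 10.35, 10.28 and 10.26 in neurospheres. Neurospheres were above tissue on it by 0.35, which did not pass, and not below. For Dut the dimmer probe set read 7.68, 7.39 and 7.48 in tissue, 5.75, 5.69 and 5.71 in cultured cells and 6.01, 5.61 and 5.98 in neurospheres. It fell by 1.80 in cultured cells and by 1.65 in neurospheres and was the 1 probe set of the 105 that went against the majority. Of the 46 chosen probe sets 19 bear a suffix by which the array's maker marks probes shared between transcripts, among them those of Rpa1, Fen1, Dut, Pold1 and Chek1, so other transcripts may add to their signal.

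**Figure D3:**
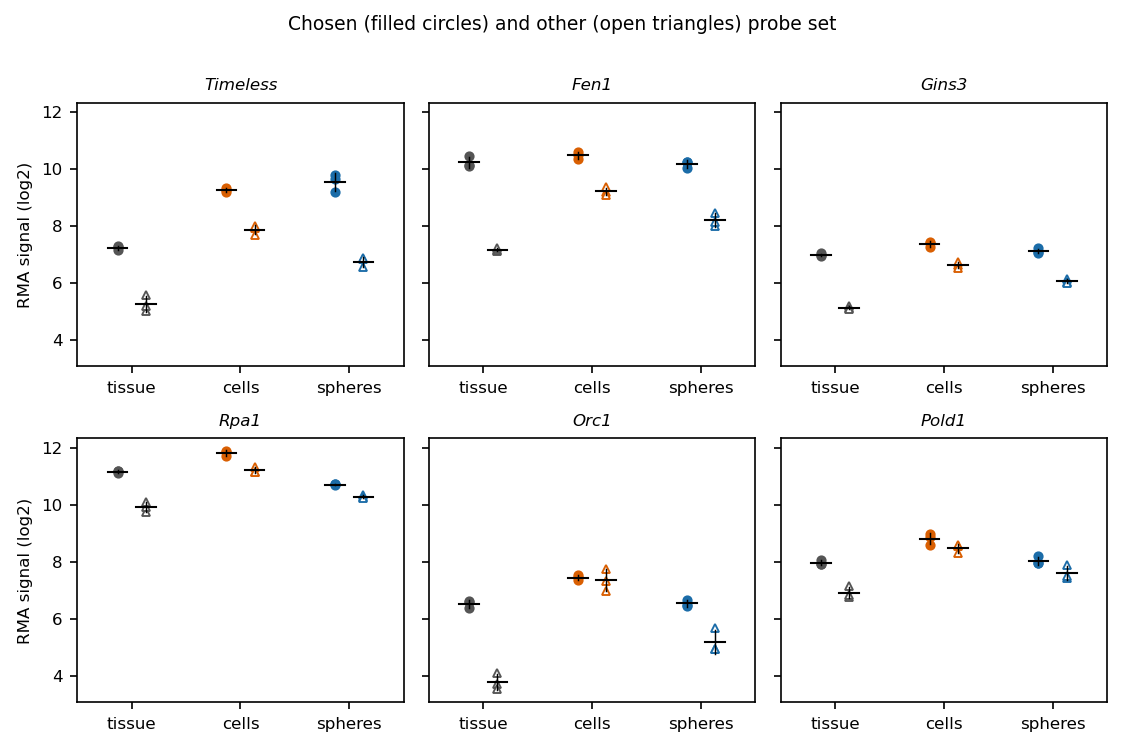
Signals of the chosen (filled circles) and the other (open triangles) probe set of Timeless, Fen1, Gins3, Rpa1, Orc1 and Pold1, 1 panel each, in tissue, cultured cells (cells) and neurospheres (spheres); points are arrays, and lines the mean and SD of each group of 3 (y axis, log2 RMA signal). For Orc1, Fen1 and Gins3 the other probe set shows tissue lowest and cultured cells highest, with rises of 3.58, 2.06 and 1.51 in cultured cells where the chosen ones gave 0.92, 0.25 and 0.38.

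Related lists outside the 46 were described by their counts and medians, with no test of a list. Of all genes 20.4% rose and 22.0% fell in cultured cells, and 21.7% rose and 21.0% fell in neurospheres. From cultured cells to neurospheres 9.0% of all genes rose and 8.91% fell. Of 30 further replication genes, 24 rose and 1 fell in cultured cells (median 1.21), 19 rose and 1 fell in neurospheres (median 0.996), and 12 fell and 0 rose between cultured cells and neurospheres (median -0.33). Clspn, an adaptor that helps activate Chek1, rose by 4.67 and 3.13, Dscc1, part of an alternative clamp loader, by 4.51 and 3.35, and Asf1b, a histone chaperone, by 3.39 and 1.96. Orc5 went the other way, falling by 0.65 in cultured cells and by 0.62 in neurospheres. Of 19 genes of homologous recombination and the Fanconi anaemia pathway, which repairs DNA crosslinks, 16 rose in cultured cells (median 1.65), 12 rose in neurospheres (median 0.73) and 13 fell between the cultures (median -1.02), with 0 in the opposite direction in each comparison. The nuclease Exo1 rose by 4.23 and 2.74, Rad51ap1 by 3.68 and 2.23 and the helicase Brip1 by 3.31 and 1.93.

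The lists of other repair pathways are given beside the 20.4% of all genes that rose in cultured cells and the 21.7% in neurospheres. In cultured cells 2 of 5 mismatch repair genes, 3 of 11 base excision repair genes, 5 of 12 nucleotide excision repair genes and 2 of 8 end joining genes rose, with medians of 0.41, 0.47, 0.21 and 0.47. In neurospheres 2, 3, 4 and 5 rose, with medians of 0.49, 0.33, 0.42 and 0.84. Msh6, which recognises mismatches, rose in both, in neurospheres by 1.01, and Neil3, a glycosylase, by 2.85 and 1.44. Some members fell, among them Mlh3 by 1.01 and 0.81, Parp1, which senses strand breaks, by 0.71 and 1.21, and Ddb2, which detects ultraviolet damage, by 1.20 and 0.93. In end joining 3 of 8 genes were higher in neurospheres than in cultured cells and 0 were lower. Of all genes 9.0% were higher and 8.91% lower in that comparison. Xrcc5, a subunit of the Ku complex that binds broken ends, was 1.34 higher in neurospheres than in cultured cells and 1.82 higher than in tissue.

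Nucleotide supply beyond the 5 genes above was mixed. Of 15 further genes, 5 rose and 1 fell in cultured cells (median 0.42) and 4 rose and 2 fell in neurospheres (median 0.16). Over all genes 20.4% and 21.7% rose in these comparisons and 22.0% and 21.0% fell. Samhd1, which breaks down deoxynucleotides, rose by 3.17 in cultured cells and was lower in neurospheres than there by a log2 difference of -2.54. Rrm2b, the reductase subunit used outside S phase, fell by 0.87 in cultured cells and by 0.92 in neurospheres, where Rrm2 rose. In the E2F and pocket protein network, 8 of 15 rose and 0 fell in cultured cells (median 0.69), and 7 rose and 3 fell in neurospheres (median 0.50). E2f7 and E2f8, which repress S-phase genes, rose by 4.61 and 3.81 in cultured cells and by 2.46 and 3.58 in neurospheres, while Tfdp2, a partner of E2F proteins, fell by 1.02 in neurospheres.

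Of 15 p53 target genes, 9 rose and 1 fell in cultured cells (median 1.45) and 10 rose and 1 fell in neurospheres (median 1.39). From cultured cells to neurospheres 2 rose and 0 fell (median 0.02). The shares of all genes that rose were 20.4%, 21.7% and 9.0%, and those that fell were 22.0%, 21.0% and 8.91%. Eda2r, of the tumour necrosis factor receptor family, rose by 4.87 and 5.05 and Pmaip1, which promotes apoptosis, by 4.37 and 4.49. Gadd45a, a growth arrest gene, did not pass in cultured cells (-0.05) and was 2.94 higher in neurospheres than there. Sesn1, a stress-induced regulator of growth, fell by 1.35 and 1.55.

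**Figure D4:**
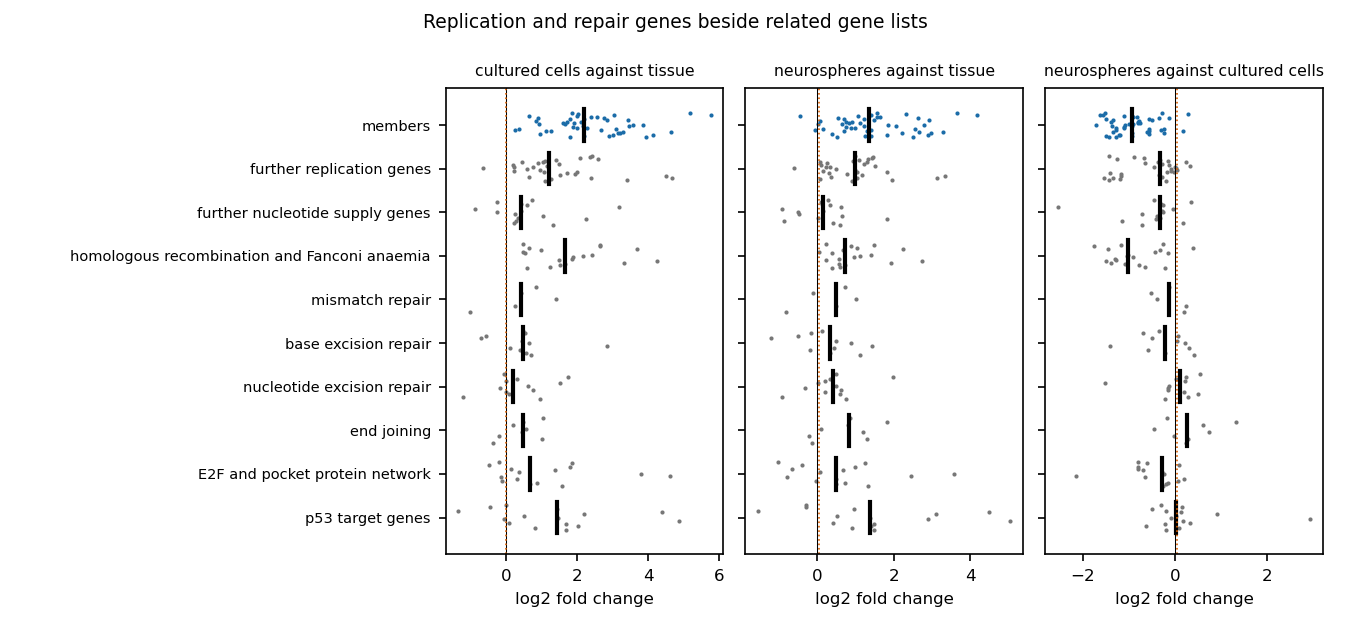
Log2 fold change of every gene of the 46 (blue) and of the related lists (grey) in the 3 comparisons (panels), with the median of each list as a black bar and the median of all genes as a dotted line. The medians of the 46 genes are 2.19, 1.35 and -0.93. Those of homologous recombination are 1.65, 0.73 and -1.02, and of further replication genes 1.21, 0.996 and -0.33. The p53 target genes have medians of 1.45, 1.39 and 0.02, and end joining of 0.47, 0.84 and 0.26. Mismatch, base excision and nucleotide excision repair lie within 0.5 of 0.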

How the data were processed

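RNA from 3 samples each of auditory nerve tissue, cultured auditory nerve cells and neurospheres had been hybridised to Affymetrix mouse arrays from 100 ng of total RNA. The deposited values are log2 signals. The authors made them with RMA (Affymetrix Expression Console), and their notes also name MAS5 and give no versions. RMA adjusts all arrays to a common distribution, so a shift shared by all genes is largely removed. Array medians were 6.15 to 6.27. Of 45101 probe sets, 64 were controls, 34945 named 1 gene, 932 several and 9160 none, and 204 symbols were kept as given when symbols were brought up to date with a RefSeq table (GRCm38.p6). Each of 18193 genes was represented by its brightest probe set (mean of 9 arrays), a choice for 9010 genes with several.

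Groups came from the sample titles. Each comparison was fitted with limma 3.58.1 (lmFit and eBayes, R 4.3.3, 2-sided) on its 6 arrays, with Benjamini-Hochberg adjustment over all genes. The fit was tested on simulated data. In place of the Student's test of the study's methods, limma was used since a gene's spread is poorly known from 3 arrays. The genes, the related lists (201 memberships, 12 not analysed here) and the markers were chosen with earlier results of these data known. Values on every array were given for the 5 genes with the largest change in each comparison, for genes that went against the majority or did not pass although the groups did not overlap, and for Pcna, Mcm2, Mcm5, Rrm2, Tk1, Cdc6, Cdt1, E2f1, Ccne1, Ccne2, Brca1 and Chek1, with Mki67 and Top2a. The other genes with array values (Orc1, Tyms and Timeless) and the second probe sets were added after their values were seen. From related lists, up to 3 genes with the largest change and up to 2 that passed against the majority were named. Alternatives were other thresholds, scalings, probe set rules, priors, a filter on dim genes, the methods' t-test, a replicate block and leaving out each array.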

Additional observations from a re-analysis of the deposited data

How the results depend on the processing

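The genes that passed were retained without each array in turn in all cases but Chek1 (38 of 38 in neurospheres and 44 of 44 in cultured cells, each against tissue, and 32 of 33 between the cultures), under each scaling (38, 44 and 33) and under each probe set rule in 33, 42 and 30. Under all of the alternatives together 29, 37 and 20 were retained. Genes that a probe set rule or the filter on dim genes left without a value were not tested there and were counted as retained. The methods' t-test, at its unadjusted threshold, gave 38, 44 and 33, and 38, 44 and 32 after Benjamini-Hochberg adjustment. Leaving out 1 array gave 38 to 39, 44 to 44 and 32 to 39 genes past the threshold and medians of 1.22 to 1.43, 2.12 to 2.25 and -1.03 to -0.84. With the replicate number as a block the counts were again 38, 44 and 33 with medians of 1.35, 2.19 and -0.93, and no call changed. Deviations of same-numbered arrays correlated at -0.09 to -0.06, 0.07 to 0.21 and -0.19 to 0.04. Those of differently numbered arrays correlated at -0.02 to 0.07, -0.17 to 0.08 and -0.09 to 0.21. With 3 arrays per group these values cannot tell if the replicate numbers pair the samples.

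In neurospheres against tissue 1 gene fell with no fold threshold (Rpa1), and 1 fell without probe sets marked as shared or with every probe set on its own (Dut). The median was 1.17 with the mean of a gene's probe sets and 1.55 with every probe set on its own, where Fen1 was at 1.04. Dut was at -0.47 with the mean, and at -1.65 without shared probe sets and with every probe set. In cultured cells against tissue 1 gene (Dut) fell under the last 2 of these, and the median was 2.41 with centring on hybridisation controls, 2.03 with the mean, 2.46 without shared probe sets and 2.71 with every probe set. Dut was at -0.27 with the mean and at -1.80 under the other 2 rules. Between the cultures 21 genes fell at a fold over 2, the median was -1.13 with centring on hybridisation controls, Mcm10 was at 0.0127 without shared probe sets (adjusted p = 0.951, limma), and Timeless was at -1.12 with every probe set. Centring on hybridisation controls moved the median of all genes to 0.21 in cultured cells against tissue and to -0.15 between the cultures, and quantile normalization moved it to 0.12 and 0.11 against tissue. The number of arrays limits the precision, and signals near background can understate a fold change. Of the counts for related lists, 970 of the values under alternatives were within 1.5 times the main one and 110 were not.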
